A study of Mus musculus with 24 samples.

Results

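The hippocampal response of wild-type (WT) mice 1 h after fear conditioning was measured by RNA sequencing in 6 of the 24 libraries of the series, 3 from naive WT mice and 3 from WT mice killed 1 h after training, and these were selected by genotype and time label alone. All mice were C57BL/6J males of 8–12 weeks, the series describes the replicates as biological, and naive mice received no conditioning. Fear conditioning pairs a context and a tone with inescapable footshocks. WT mice at 15 min (n = 3) and 3 h (n = 3) after training, and mice labelled Tob KO that were naive (n = 3) or at 1 h (n = 3), were used for comparison. Tob encodes TOB, an anti-proliferative regulator of transcription and mRNA decay. Trained mice met the chamber and the tone as well as the shock, and the parts these played cannot be told apart.

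When hippocampal neurons fire, calcium entry and kinase signaling through ERK and cAMP act on transcription factors already present in the nucleus, mainly CREB and SRF, which switch on immediate early genes without new protein synthesis. Their products are largely transcription factors themselves (the AP-1, EGR and NR4A families and NPAS4), together with synaptic proteins such as ARC and feedback inhibitors such as the DUSP phosphatases. Most of these mRNAs are short-lived, so that the same gene can be raised at 15 min and back at its resting level within hours. Footshock also releases glucocorticoids, which reach the hippocampus through the blood and induce a partly overlapping set of genes, including Sgk1, Per1, Fkbp5 and Pdk4.

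In WT hippocampus at 1 h, 33 of 18937 tested genes differed from naive mice at a false discovery rate of 0.05, 19 higher (0.1% of genes tested) and 14 lower (0.0739%), together 0.174% (edgeR quasi-likelihood test over the 12 WT libraries, Benjamini-Hochberg adjustment). The higher genes included 3 activity-induced transcription factors (Nr4a3, Fosl2 and Egr4), the chaperone gene Dnajb1, the glycogen-targeting subunit gene Ppp1r3c, the metabolic switch gene Pdk4 and the endothelial gene Apold1. Among the lower genes, 8 of 14 were noncoding RNAs, among them the imprinted Meg3. Changes were small. A fold change of 2 or more, the limit the study set between genotypes, was passed by 2 called genes (0.0106%), Apold1 upward and Gm17494 downward. At an unadjusted p under 0.05 there were 1893 genes, and the median log2 fold change over all genes was -0.0022. The count depended on single mice. It was 6 without naive replicate 2, 0 without naive replicate 3, 5, 3 and 9 without 1 h replicates 1, 2 and 3, 82 without 15 min replicate 1, and 10 and 19 without 3 h replicates 1 and 2. A fit to the 6 naive and 1 h libraries alone called 27 genes, 22 higher and 5 lower, of which 18 were shared (54.5% of the 33 and 66.7% of the 27), and it added 9 genes, namely Fos, Junb, Egr2, Nr4a1, Dusp5, Dusp6, Errfi1, Dio2 and Mir124a-1hg, of which those outside the naming rule are named after their values were seen. It did not call the other 15 of the 33, whose adjusted p there lay between 0.0658 (Pdk4) and 0.151 (Gm15328, edgeR). These included Apold1 (adjusted p = 0.0928), Meg3, Mertk and Gm17494 (each 0.0691), Nrros (0.0812) and Txnip (0.141, edgeR). A fit to all 24 libraries called 36 genes, 22 of them shared, and did not call Fosl2 (adjusted p = 0.077), Apold1 (0.107), Gm21781 (0.0726) or Meg3 (0.0935, edgeR), among 11 lost.

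**Figure D1:**
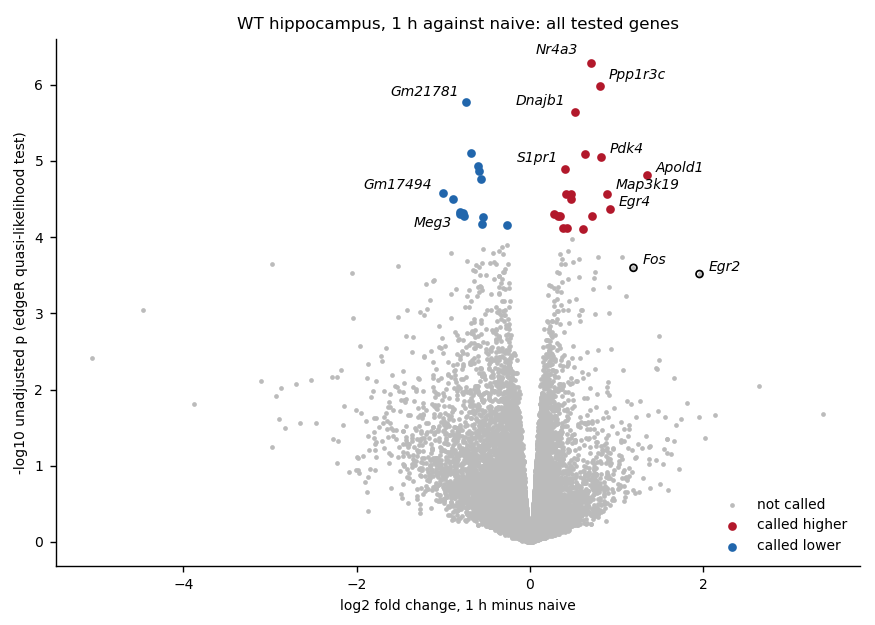
Each point is 1 of the 18937 tested genes in WT hippocampus, with the log2 fold change of 1 h minus naive on the x axis and -log10 of the unadjusted p on the y axis. The 19 genes called higher (red) and 14 called lower (blue) lie mostly within a fold change of 2, while Fos and Egr2 (open circles) had fold changes of 2.29 and 3.89 but were not called.

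Depth was similar between groups. The 6 naive and 1 h libraries held 30016559 to 39829648 counted fragments. Markers of dentate granule cells summed to 321–454 CPM (counts scaled to the library total with the TMM factor) in naive mice and 353–498 CPM at 1 h, markers of CA1 pyramidal neurons to 845–939 and 783–980 CPM, and markers of CA3 pyramidal neurons to 333–378 and 358–396 CPM, so every library carried hippocampal markers. No marker was called in any of 13 cell type lists. The 18 choroid plexus markers summed to 4007, 1266 and 227 CPM in the naive mice and to 3966, 272 and 1653 CPM in the 1 h mice, a spread that was large within both groups. The part of this tissue in the results was not tested beyond a fit with its score as covariate, which called 56 genes, 28 higher and 28 lower. In a tissue homogenate, fewer cells of a type and less RNA per cell cannot be told apart.

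The promoters of a few early response genes are shown first, since CREB and SRF sites in this class of gene are the textbook route from neuronal firing to transcription. Each sequence runs from 250 bases before to 50 bases after the annotated start (RefSeq, GRCm38.p6), 5′ to 3′ on the gene's strand, and capitals mark a full CRE (TGACGTCA), a CRE core (TGACG, or CGTCA on the other strand) or a TATA box (TATAAA).

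Fos, chr12:85473640-85473939, plus strand: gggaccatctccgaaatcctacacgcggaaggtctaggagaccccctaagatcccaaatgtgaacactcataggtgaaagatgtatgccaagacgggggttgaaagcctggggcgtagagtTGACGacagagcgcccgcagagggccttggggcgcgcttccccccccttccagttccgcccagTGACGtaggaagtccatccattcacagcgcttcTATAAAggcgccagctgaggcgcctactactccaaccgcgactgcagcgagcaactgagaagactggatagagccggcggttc

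Nr4a3, chr4:48045055-48045354, plus strand: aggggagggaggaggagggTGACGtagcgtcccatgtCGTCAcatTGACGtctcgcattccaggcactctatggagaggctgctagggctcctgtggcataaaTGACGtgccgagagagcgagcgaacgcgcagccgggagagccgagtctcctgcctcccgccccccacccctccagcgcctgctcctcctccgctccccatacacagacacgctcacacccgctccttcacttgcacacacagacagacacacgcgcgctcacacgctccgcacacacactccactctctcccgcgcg

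Egr4, chr6:85513540-85513839, minus strand: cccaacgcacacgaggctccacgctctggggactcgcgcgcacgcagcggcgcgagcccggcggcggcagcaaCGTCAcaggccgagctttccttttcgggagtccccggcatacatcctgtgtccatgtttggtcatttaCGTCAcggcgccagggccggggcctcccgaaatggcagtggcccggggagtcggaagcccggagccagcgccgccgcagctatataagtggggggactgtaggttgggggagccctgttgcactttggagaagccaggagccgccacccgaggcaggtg

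Arl5b, chr2:15055070-15055369, plus strand: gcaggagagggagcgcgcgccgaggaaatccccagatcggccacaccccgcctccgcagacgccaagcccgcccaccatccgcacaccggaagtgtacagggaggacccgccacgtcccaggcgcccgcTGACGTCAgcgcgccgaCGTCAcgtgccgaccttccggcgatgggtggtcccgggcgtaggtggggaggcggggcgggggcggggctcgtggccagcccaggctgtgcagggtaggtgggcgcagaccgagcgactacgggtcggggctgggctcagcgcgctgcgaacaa

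Fosl2, chr5:32136222-32136521, plus strand: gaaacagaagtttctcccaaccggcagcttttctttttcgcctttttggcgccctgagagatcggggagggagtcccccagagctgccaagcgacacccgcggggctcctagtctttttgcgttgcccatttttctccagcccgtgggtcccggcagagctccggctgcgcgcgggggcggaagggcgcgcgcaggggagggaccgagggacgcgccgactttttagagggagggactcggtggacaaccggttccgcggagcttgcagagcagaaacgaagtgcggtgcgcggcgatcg

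Fos, the standard marker of recently active neurons, held CRE cores 129 and 66 bases before its start and a TATA box at 33 bases. Nr4a3 held 4 CRE cores, Egr4 held 2, and Arl5b held the full palindrome together with a separate core. Fosl2 held none of the motifs searched in this window. Of the 19 genes called higher, 15 had a promoter in the RefSeq table, and 7 of these (46.7%) held a CRE core in at least 1 window, compared with 32.7% of the 12603 tested genes with a promoter. The full CRE was present in 1 of the 15 and in 3.32% of tested genes, and the TATA box in 2 of the 15 and in 9.35%. No CArG box, the SRF site, and no glucocorticoid response element palindrome was found in the 15, and these were held by 1.66% and 0.00793% of tested genes. Both strands were searched, full sites contain a core, and a match is a description of the sequence only.

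The AP-1 family, whose FOS and JUN proteins pair on DNA to drive the next wave of transcription, had 1 of 8 tested members called higher and none lower (0.1% of all genes were called higher). The family median was 0.70 on the log2 scale, against -0.0022 for all genes. In 7 of 8 members every 1 h mouse lay above every naive mouse, an arrangement found upward in 7.67% of all genes. Fosl2, which encodes the late-persisting partner FRA-2, was the called member. It was at 68.9, 61.7 and 68.6 CPM in naive mice and at 92.0, 109 and 109 CPM at 1 h. The groups did not overlap, and the log2 fold change was 0.63 ± 0.09 (SE, adjusted p = 0.0238 over 12 libraries, 0.0375 over 6 and 0.077 over 24, edgeR).

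Fos was at 14.5, 14.8 and 12.9 CPM in naive mice and at 34.7, 36.7 and 25.5 CPM at 1 h. All 1 h mice were thus above all naive mice, by 2.29-fold (log2 fold change 1.20 ± 0.24, SE). The adjusted p was 0.0785 over the 12 WT libraries and 0.0332 in the 6 libraries alone (edgeR). Over the same 12 libraries it was 0.00927 by DESeq2 and 0.0446 with the choroid plexus score as covariate (edgeR). Of 24 alternative runs, 7 called Fos, so its call depended on the test and model as well as on the libraries. Fosb, the source of the stable truncated protein that accumulates with repeated activity, was at 13.8, 8.29 and 11.7 CPM in naive mice and 22, 23.7 and 24.9 CPM at 1 h (log2 fold change 1.06 ± 0.21, SE; adjusted p = 0.0751, edgeR). Junb was at 48.9, 52.3 and 47.2 CPM in naive mice and 88.0, 88.8 and 71.5 CPM at 1 h (0.74 ± 0.15, SE; adjusted p = 0.0841, edgeR). Both groups of values were separate for Fosb and for Junb, and neither gene passed the threshold in the edgeR fit to the 12 WT libraries without the covariate. Junb did in the 6 libraries alone (adjusted p = 0.0332, edgeR). DESeq2 over the 12 WT libraries called both (adjusted p = 7.83e-05 for Fosb and 0.0148 for Junb). Of 24 alternative runs, 7 called Fosb and 6 called Junb. Jund, the constitutive member, had a log2 fold change of -0.01.

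The EGR zinc finger factors and their NAB corepressors had 1 of 6 members called higher, with a list median of 0.47. Egr4 was the called gene. It was at 26.7, 23.0 and 24.9 CPM in naive mice and at 47.5, 49.8 and 44.7 CPM at 1 h, with no overlap (log2 fold change 0.93 ± 0.16, SE; adjusted p = 0.0368, edgeR). Egr4 was called in 14 of 24 alternative runs. Its adjusted p was 0.0714 with robust dispersions and 0.178 without naive replicate 3 (edgeR). Egr2 varied widely between mice. Its values were 2.47, 1.77 and 1.12 CPM in naive mice and 9.01, 6.69 and 5.35 CPM at 1 h (3.89-fold, log2 fold change 1.96 ± 0.41, SE), with an adjusted p of 0.0813 over 12 libraries and 0.0482 over 6 (edgeR). Egr1, a plasticity-linked factor, was at 177, 130.0 and 126 CPM in naive mice and 208, 255 and 204 CPM at 1 h. The groups were separate, yet the log2 fold change of 0.62 ± 0.25 (SE) gave an adjusted p of 0.417 (edgeR). Egr3 stood apart from its relatives, at 57.5–58.6 CPM in naive and 59.4–65.9 CPM in 1 h mice (0.09 ± 0.12, SE; adjusted p = 0.861, edgeR).

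Among the NR4A orphan nuclear receptors, which are required for the consolidation of long-term memory in hippocampus, 1 of 3 members was called higher. Nr4a3 had the smallest p of all genes tested. Naive mice were at 73.8, 84.5 and 70.2 CPM and 1 h mice at 118, 126 and 129 CPM, a 1.63-fold difference with tight groups (log2 fold change 0.70 ± 0.08, SE; adjusted p = 0.00986, edgeR). Nr4a1 was at 62.9–64.8 CPM in naive mice and at 94.7, 105 and 82.1 CPM at 1 h, again without overlap (0.56 ± 0.23, SE), with an adjusted p of 0.425 over 12 libraries and 0.049 over 6 (edgeR). Nr4a2 overlapped between groups (log2 fold change 0.33, adjusted p = 0.537, edgeR).

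**Figure D2:**
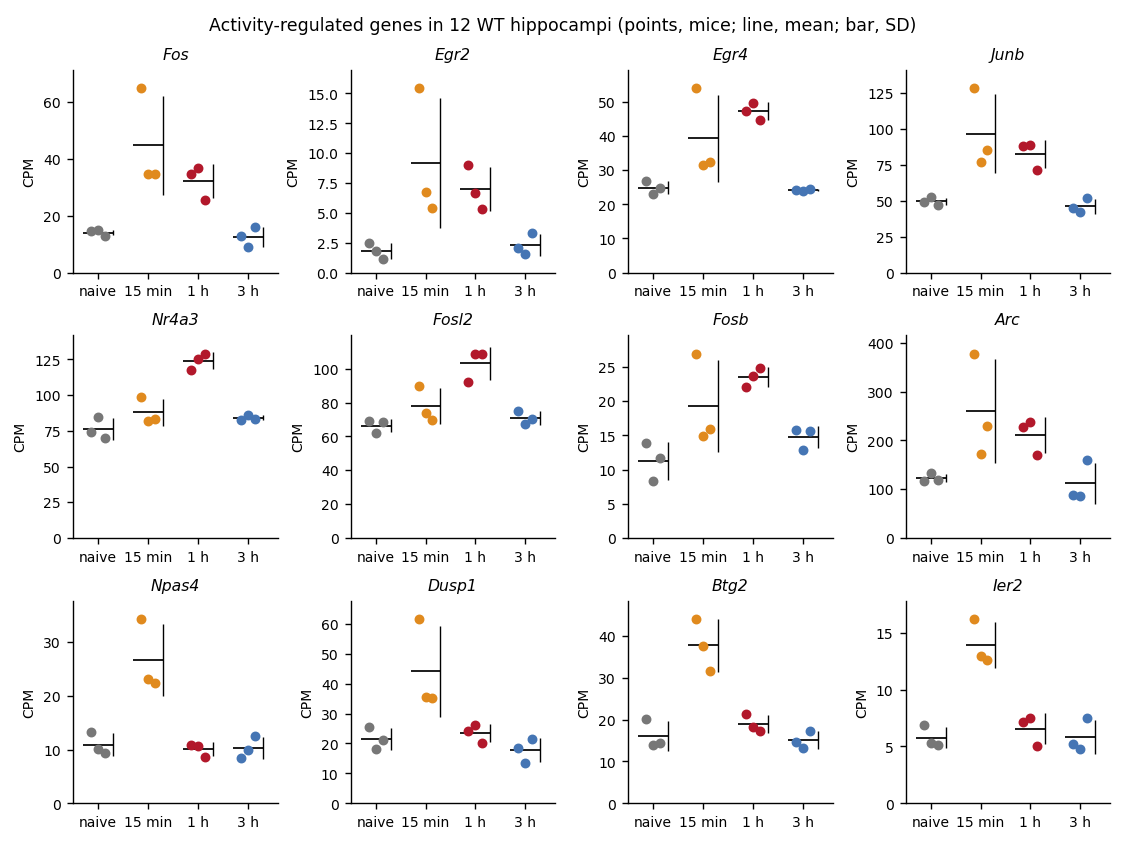
TMM-scaled CPM (y axis, from 0) of 12 activity-regulated genes in each of the 12 WT mice at naive, 15 min, 1 h and 3 h (x axis), where points are mice, lines group means and bars SD. Fos, Egr2, Junb, Arc, Npas4, Dusp1, Btg2 and Ier2 had their highest mean at 15 min, while Nr4a3, Fosl2, Fosb and Egr4 had theirs at 1 h, and 15 min replicate 1 was the highest mouse of its group in every panel.

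Synaptic and cytoskeletal effectors had 1 of 22 members called higher, with a median of 0.06. The called member was Arl5b, a small GTPase of the trans-Golgi, at 34.8, 38.1 and 34.7 CPM in naive and 53.1, 48.2 and 48.0 CPM in 1 h mice (log2 fold change 0.47 ± 0.08, SE; adjusted p = 0.0326, edgeR). Arc, whose protein removes AMPA receptors from synapses, was at 117, 133 and 119 CPM in naive mice and 228, 238 and 169 CPM at 1 h. These groups were separate (0.78 ± 0.27, SE), with an adjusted p of 0.313 (edgeR). Homer1, a postsynaptic scaffold, was at 152–185 CPM in naive and 175–209 CPM in 1 h mice, which overlapped (0.23 ± 0.12, SE; adjusted p = 0.568, edgeR). No AMPA, NMDA or GABA-A receptor subunit was called among 20 tested, and their median was 0.01.

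NPAS4, a neuron-specific factor that recruits inhibitory synapses, and the secreted or ligand-processing products had 0 of 20 members called in either direction by edgeR, with 2 at an unadjusted p under 0.05 and a median of -0.05. Npas4 itself was at 13.3, 10.1 and 9.34 CPM in naive mice and at 10.9, 10.7 and 8.59 CPM at 1 h, with overlapping groups (log2 fold change -0.12 ± 0.19, SE; adjusted p = 0.891, edgeR). Without naive replicate 1 its log2 fold change was 0.05. Bdnf, the neurotrophin gene, was at 42.3–49.9 CPM in naive mice and 48.0–51.4 CPM at 1 h (0.09 ± 0.10, SE; adjusted p = 0.809, edgeR). Nptx2, which clusters AMPA receptors on interneurons, was at 31.8–39.4 and 27.6–30.9 CPM, with every 1 h mouse below every naive mouse (-0.28 ± 0.15, SE; adjusted p = 0.568, edgeR). The total count of a gene does not separate its transcripts, so a change in a single Bdnf or Homer1 isoform was not measured.

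The SRF-linked Ier, Klf and matricellular genes had 0 of 22 members called by edgeR, with 8 at an unadjusted p under 0.05 and a median of 0.19. Ier2 was at 5.15–6.85 CPM in naive and 5.03–7.52 CPM in 1 h mice (0.19 ± 0.19, SE), and Btg2, an anti-proliferative relative of Tob1, at 13.8–20.2 and 17.3–21.3 CPM (0.23 ± 0.15, SE). Both overlapped between groups. Cyr61, a secreted matricellular protein gene, was at 3.76–5.16 and 4.91–9.25 CPM and also overlapped (0.78 ± 0.31, SE; adjusted p = 0.409, edgeR). Tob1 was at 43.1, 37.5 and 33.7 CPM in naive mice and 44.4, 40.0 and 36.9 CPM at 1 h, a log2 fold change of 0.08 ± 0.08 (SE, adjusted p = 0.791, edgeR).

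ERK pathway genes and their feedback inhibitors had 0 of 17 members called by edgeR, with 4 at an unadjusted p under 0.05 and a median of 0.03. Dusp6, the cytoplasmic ERK phosphatase, was at 50.7, 52.5 and 47.5 CPM in naive mice and at 64.8, 72.7 and 66.4 CPM at 1 h. Its groups were separate (0.44 ± 0.13, SE), with an adjusted p of 0.233 over 12 libraries and 0.0482 over 6 (edgeR). Dusp1, which encodes the nuclear phosphatase MKP-1, was at 25.5, 18.1 and 21.0 CPM and at 24.1, 26.1 and 20.3 CPM, overlapping (0.13 ± 0.21, SE; adjusted p = 0.894, edgeR).

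Among 17 cAMP/CREB-linked genes edgeR called 0, with 9 at an unadjusted p under 0.05, while 9 had every 1 h mouse above every naive mouse and the median was 0.15. Over all genes, 7.67% were so arranged and 1893 of 18937 had an unadjusted p under 0.05. Of the 18 clock genes 0 were called, with 4 at an unadjusted p under 0.05 and a median of 0.05. Per1, a clock gene with both CRE and glucocorticoid control, was at 85.8, 97.8 and 94.2 CPM in naive mice and at 127, 139 and 119 CPM at 1 h. Its groups were separate (0.47 ± 0.20, SE), with an adjusted p of 0.447 (edgeR).

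**Figure D3:**
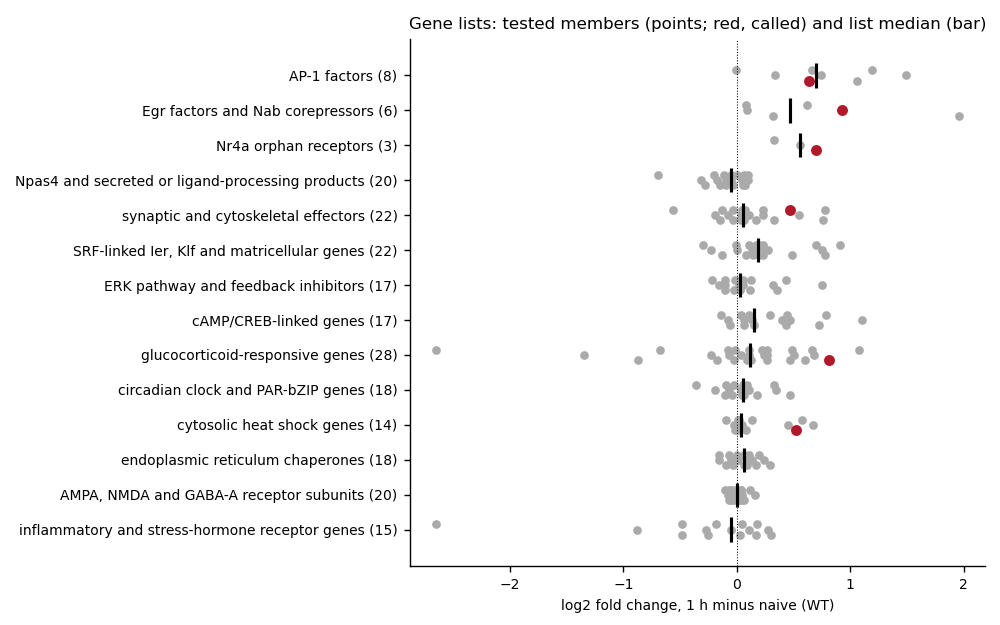
Log2 fold change of 1 h minus naive in WT (x axis) for every tested member (points) of 14 gene lists (y axis, number tested in brackets), with called members in red and the list median as a black bar. The medians of the AP-1, EGR and NR4A lists were 0.70, 0.47 and 0.56, and those of the other 11 lists lay between -0.05 and 0.19.

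The 28 glucocorticoid-responsive genes had 1 member called higher and none lower, with a median of 0.12. In either direction, 16 had an unadjusted p under 0.05 (edgeR), against 1893 of all 18937 genes. In 10 of them every 1 h mouse lay above every naive mouse, and in 2 below (7.67% and 8.52% of all genes). Pdk4, which shuts pyruvate out of the mitochondrial cycle, was the called gene, at 10.7, 9.74 and 7.82 CPM in naive and 18.4, 15.9 and 15.6 CPM in 1 h mice (0.82 ± 0.12, SE; adjusted p = 0.0238 over 12 libraries and 0.0658 over 6, edgeR). Sgk1, a kinase induced by corticosterone, was at 78.1, 130 and 85.4 CPM in naive mice and 162, 146 and 158 CPM at 1 h, separate but with an adjusted p of 0.329 (0.67 ± 0.23, SE, edgeR). Fkbp5, the receptor's own co-chaperone, was at 68.4–75.5 and 65.7–75.9 CPM (-0.08 ± 0.08, SE; adjusted p = 0.802, edgeR).

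Not every target of this hormone was higher. Hif3a was at 18.6, 14.5 and 11.6 CPM in naive mice and 5.25, 6.54 and 12.8 CPM at 1 h, and the lipid droplet gene Plin4 at 19.0, 22.8 and 6.90 CPM and at 3.14, 4 and 12.2 CPM. In both genes a single mouse of each group overlapped the other group, 1 h replicate 3 being the high one, and the adjusted p was 0.255 and 0.296 (edgeR). Lcn2, the secreted iron-carrier protein lipocalin-2, was at 33, 13 and 21 raw counts in naive mice and 4, 5 and 2 at 1 h. Every 1 h mouse was lower, at low counts (log2 fold change -2.65 ± 1.07, SE). The adjusted p was 0.416 over 12 libraries and 0.113 over 6 (edgeR quasi-likelihood test). It was 0.0963 by DESeq2 and 0.000145 by edgeR's exact test on the 6, so the call depended on the test. The 15 tested inflammatory and stress-hormone receptor genes had 0 called by edgeR, with 1 at an unadjusted p under 0.05 and a median of -0.05, and 5 more of the 20 on that list fell under the expression filter.

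Cytosolic heat shock genes had 1 of 14 members called higher, with a median of 0.03. Dnajb1, the HSP40 co-chaperone that loads HSP70, was at 48.2, 45.5 and 49.4 CPM in naive mice and 65.6, 68.3 and 71.5 CPM at 1 h (0.52 ± 0.07, SE; adjusted p = 0.0109, edgeR). The inducible HSP70 genes Hspa1a and Hspa1b, named after their values were seen, had log2 fold changes of 0.57 (adjusted p = 0.0822) and 0.67 (adjusted p = 0.267, edgeR) without overlap. They are near-identical copies that share reads, so their separate values are uncertain. The constitutive Hspa8 was at -0.02. Among 18 endoplasmic reticulum chaperone genes edgeR called 0, with 2 at an unadjusted p under 0.05 and a median of 0.07.

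Outside the lists, Ppp1r3c had the second smallest p of the comparison. The gene (ENSMUSG00000067279.3, chr19:36731731-36736653, GRCm38) encodes the subunit that brings protein phosphatase 1 to glycogen, which in brain is stored in astrocytes. It was at 39.6, 42.2 and 35.5 CPM in naive mice and 68.7, 78.6 and 57.6 CPM at 1 h, a 1.75-fold difference (0.80 ± 0.10, SE; adjusted p = 0.00997, edgeR). Of the 8 astrocyte markers none was called, and their sum was 5194–5411 CPM in naive and 5239–5605 CPM in 1 h mice. In 3 of the 8 every 1 h mouse lay above every naive mouse, and in 0 below (7.67% and 8.52% of all genes).

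The endothelial genes Apold1 and S1pr1 were also called higher. Apold1 (ENSMUSG00000090698.2, chr6:134981718-134986836), a gene of stressed blood vessel endothelium, was at 3.26, 4.15 and 2.44 CPM in naive mice and 10.4, 8.54 and 6.26 CPM at 1 h (2.56-fold, log2 fold change 1.35 ± 0.21, SE; adjusted p = 0.0266 over 12 libraries and 0.0928 over 6, edgeR). S1pr1 (chr3:115710433-115715072), the sphingosine-1-phosphate receptor of endothelium and astrocytes, was at 119, 114 and 114 CPM and at 164, 151 and 146 CPM (0.41 ± 0.06, SE; adjusted p = 0.0257, edgeR). Endothelial markers summed to 190–260 CPM in naive and 212–240 CPM in 1 h mice, and none of the 8 was called between these groups. They summed to 282–356 CPM at 15 min and 181–197 CPM at 3 h. The part of endothelial content in the values of Apold1 and S1pr1 across times was not tested. Map3k19 (chr1:127815253-127855031), a mitogen-activated kinase kinase kinase gene, was at 5.45, 6.52 and 5.02 CPM in naive mice and 9.74, 10.7 and 10.9 CPM at 1 h (0.89 ± 0.14, SE; adjusted p = 0.0326, edgeR).

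The remaining 9 genes called higher had log2 fold changes of 0.28 to 0.71, and are named here for completeness and not by the rule that chose the others. Txnip, which inhibits glucose uptake and thioredoxin, was at 26.0, 24.3 and 22.7 CPM in naive mice and at 49.8, 36.7 and 33.5 CPM at 1 h (0.71 ± 0.12, SE; adjusted p = 0.0368 over 12 libraries and 0.141 over 6, edgeR). Irs2, an insulin and IGF-1 receptor substrate, was at 91.4–97.7 and 124–128 CPM (0.42 ± 0.07, SE). Elovl6 (0.32) elongates fatty acids, Cyp51 (0.38) acts in cholesterol synthesis, P4ha1 (0.35) hydroxylates collagen prolines and Txnrd1 (0.28) reduces thioredoxin. Tiparp (0.62) encodes a mono-ADP-ribosyltransferase and Zfp516 (0.43) a zinc finger protein, and Ccdc117 was at 0.48. All 19 genes called higher were protein-coding. All 19 had every 1 h mouse above every naive mouse, as did 7.67% of all genes, and their selection by the test on these mice favors that arrangement.

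The 14 genes called lower were of a different kind. Of these, 8 (57.1%) were annotated as noncoding, against 17.4% of the 18120 tested genes with 1 match in GENCODE M21. Meg3 (ENSMUSG00000021268.17, chr12:109541001-109571726), the maternally expressed noncoding RNA of an imprinted cluster, was at 1858, 2234 and 2519.8 CPM in naive mice and 1183, 1481 and 1209.8 CPM at 1 h. All 1 h mice were lower, by 0.77 ± 0.13 on the log2 scale (SE, adjusted p = 0.0368 over 12 libraries and 0.0691 over 6, edgeR). Its downstream neighbors on the same strand, Rian and Mirg, named after their values were seen, had log2 fold changes of -0.25 (adjusted p = 0.0751) and -0.17 (adjusted p = 0.805, edgeR). Naive replicate 3 had the highest Meg3 and 1 h replicate 1 the lowest.

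Gm21781 (ENSMUSG00000095123.1, chr10:4391587-4396424), a long intergenic noncoding RNA gene, had the smallest p of the lower genes, at 14.8, 15.4 and 15.4 CPM in naive mice and 9.16, 9.96 and 8.37 CPM at 1 h (-0.73 ± 0.09, SE; adjusted p = 0.0108, edgeR). AI480526 (chr5:123133723-123141666) was at 25.0, 26.6 and 31.2 CPM and at 18.2, 17.4 and 16.2 CPM (-0.68 ± 0.10, SE). Gm3764 (chr3:88206813-88229959) was at 75.8, 84.4 and 88.7 CPM and at 53.8, 58.7 and 52.5 CPM (-0.60 ± 0.09, SE). Gm17494 (chr3:122255958-122293720) fell furthest, from 3.86–4.29 to 1.67–2.31 CPM (-1.0 ± 0.16, SE; adjusted p = 0.0326 over 12 libraries and 0.0691 over 6, edgeR). Whether the counting used strand was not given in the sources used here, so reads of these RNAs and of overlapping genes on the opposite strand may not be separable.

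The 6 protein-coding genes that fell were Mertk, Nrros, Smpd4, Cd46, Rreb1 and Gpatch8. Mertk, the receptor with which astrocytes and microglia engulf debris, was at 59.2, 58.8 and 61.7 CPM in naive mice and 39.4, 36.1 and 46.6 CPM at 1 h (-0.56 ± 0.09, SE; adjusted p = 0.0269 over 12 libraries and 0.0691 over 6, edgeR). Nrros, which holds latent TGF-beta on microglia, was at 8.39, 6.33 and 7.36 CPM and at 4.06, 4.43 and 4.18 CPM (-0.80 ± 0.14, SE; adjusted p = 0.0368 over 12 libraries and 0.0812 over 6, edgeR). The 8 microglial markers summed to 336–378 CPM in naive and 349–365 CPM in 1 h mice, with none called. Smpd4, a neutral sphingomyelinase gene, was at 45.5–49.7 and 28.5–33.4 CPM (-0.59 ± 0.09, SE; adjusted p = 0.0257, edgeR). Cd46, a complement regulator gene, was at -0.80, Rreb1 at -0.56 and Gpatch8 at -0.27 on the log2 scale. All 14 lower genes had every 1 h mouse below every naive mouse, as did 8.52% of all genes, and their selection by the test favors that arrangement.

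**Figure D4:**
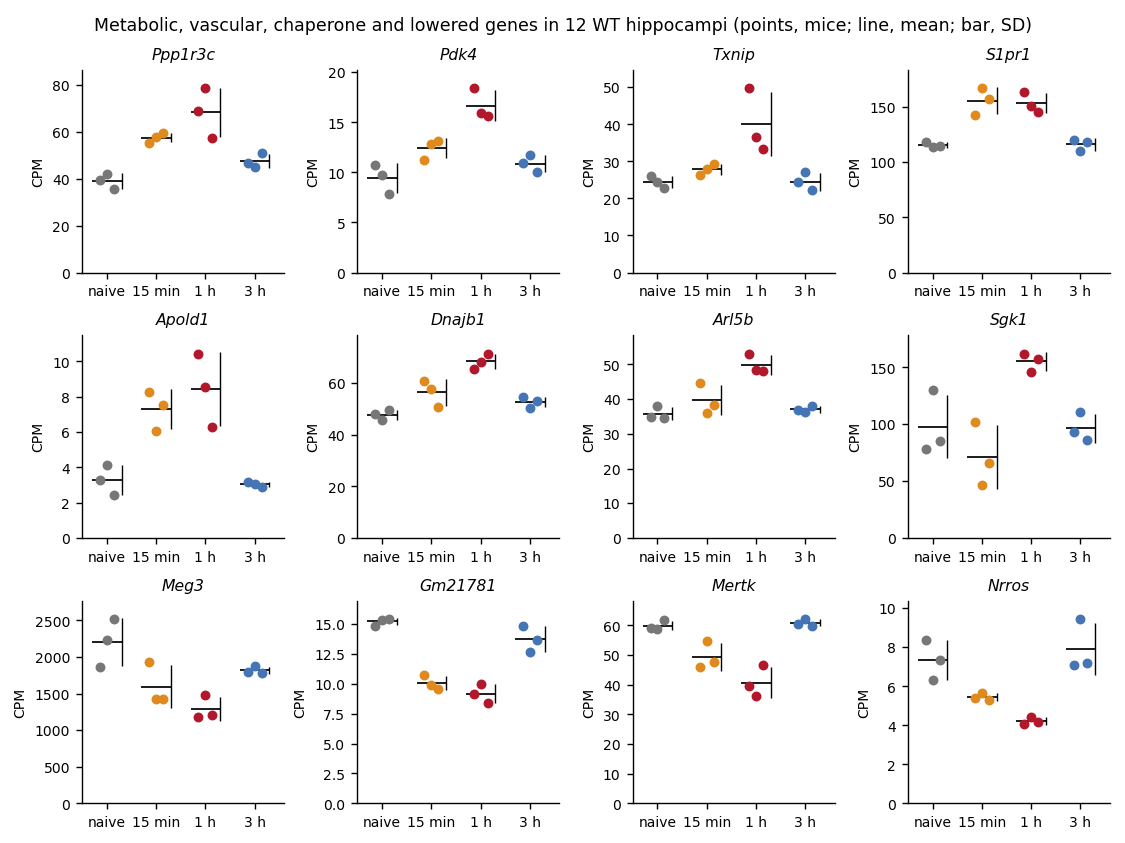
TMM-scaled CPM (y axis, from 0) of 12 metabolic, vascular, chaperone and lowered genes in each of the 12 WT mice at naive, 15 min, 1 h and 3 h (x axis), where points are mice, lines group means and bars SD. Ppp1r3c, Pdk4, Txnip, Dnajb1, Arl5b and Sgk1 had their highest mean at 1 h, S1pr1 and Apold1 were high at both 15 min and 1 h, and Meg3, Gm21781, Mertk and Nrros had their lowest mean at 1 h.

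To place these genes in time, the 1 h mice were compared with WT mice killed at 15 min and 3 h. Values against naive mice at the 3 times share the same 3 control mice and are given side by side only. The 19 genes higher than in naive mice had a median log2 fold change of 0.20 at 15 min, 0.52 at 1 h and 0.07 at 3 h, and the 14 lower genes of -0.38, -0.71 and -0.18. Since these genes were selected at 1 h, the larger size there is partly fixed by the selection.

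No gene passed the threshold between 1 h and 15 min (0 of 18937, 0%, smallest adjusted p = 0.0753, edgeR), while 1882 had an unadjusted p under 0.05 and DESeq2 called 48. Without 15 min replicate 1 edgeR called 21 genes. The smallest adjusted p was that of Npas4, which was at 34.3, 23.1 and 22.4 CPM at 15 min against 10.9, 10.7 and 8.59 CPM at 1 h (log2 fold change of 1 h minus 15 min -1.40 ± 0.19, SE). Btg2 was at 44.0, 37.5 and 31.5 CPM at 15 min against 17.3–21.3 CPM at 1 h (-0.99 ± 0.15, SE; adjusted p = 0.0919, edgeR). Ier2 (-1.08 ± 0.19), Cyr61 (-1.03 ± 0.30) and Dusp1 (-0.90 ± 0.21, SE) also had every 1 h mouse below every 15 min mouse, an arrangement found in 8.05% of all genes. Their adjusted p lay between 0.234 and 0.418 (edgeR).

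Fos and Arc overlapped between these times. Fos was at 64.9, 34.8 and 34.6 CPM at 15 min and 25.5–36.7 CPM at 1 h (-0.47 ± 0.23, SE; adjusted p = 0.524, edgeR), and Arc was at 378, 172 and 230 CPM against 169–238 CPM (-0.29 ± 0.26, SE; adjusted p = 0.73, edgeR). Other genes had every 1 h mouse above every 15 min mouse without passing the threshold, as did 7.35% of all genes. Nr4a3 was at 98.6, 81.9 and 83.1 CPM at 15 min (0.50 ± 0.08, SE; adjusted p = 0.0919, edgeR), and Sgk1 at 102, 46.3 and 65.6 CPM (1.12 ± 0.23, SE; adjusted p = 0.38, edgeR). S1pr1 was at 143, 167 and 157 CPM at 15 min, near its 1 h level (-0.01 ± 0.06, SE). The endothelial markers summed to 282–356 CPM at 15 min, above the 212–240 CPM at 1 h.

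Between 1 h and 3 h, 10 genes were called, 6 higher at 1 h (0.0317% of genes tested) and 4 lower (0.0211%), together 0.0528% (edgeR). Of the listed genes only Nr4a3 was among them, at 82.9, 86.2 and 83.5 CPM at 3 h (log2 fold change of 1 h minus 3 h 0.56 ± 0.08, SE; adjusted p = 0.0283). The other higher genes were Apold1 (1.47), S1pr1 (0.40), Ccdc117 (0.63), the progenitor transcription factor gene Sox21 (0.98) and the lactate transporter gene Slc16a1 (0.65), and the lower genes were Mertk (-0.58), Nrros (-0.91), Gm21781 (-0.59) and Fam214a (-0.42), named here because they make up the whole set of calls. Sox21 was at 16.5, 17.6 and 17.3 CPM at 1 h and 9.61, 7.75 and 8.70 CPM at 3 h. The endothelial markers summed to 212–240 CPM at 1 h and 181–197 CPM at 3 h. Of these 10 genes, 7 were also among the 33 that differed from naive mice. Both comparisons use the same 1 h mice and the same estimate of the spread, so this overlap is not independent support. The count was 0 without 1 h replicate 1 or 2 or without any of the 3 h replicates, and 15 without 1 h replicate 3. Fos was at 13, 9 and 16 CPM at 3 h and Egr4 at 24, 23.9 and 24.6 CPM, with adjusted p of 0.0654 and 0.0522 (edgeR).

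The 1 h response was then compared with that of mice labelled Tob KO, which have their own naive controls. The targeted gene Tob1 was counted in these libraries at 52.0, 55.4 and 52.8 CPM when naive and 67.6, 66.2 and 59.3 CPM at 1 h, above the WT libraries, so the count runs against the label. Gene-level counts cannot locate the reads relative to the deleted part, so this is no check of the deletion, and the libraries are called by their label. Within the libraries labelled Tob KO, 203 of 18882 genes were called at 1 h against naive (1.08%, edgeR), 66 higher and 137 lower. These calls came from a fit to the naive and 1 h libraries of both genotypes. The WT calls came from a fit to the WT libraries at all times, with its own estimate of the spread. The numbers of calls in the genotypes are therefore not directly comparable. The difference of the responses was not significant for any gene (0 of 18882, 0%, edgeR; 694 at an unadjusted p under 0.05; 0 by DESeq2, smallest edgeR adjusted p = 0.988). A different response was thus not shown for any gene.

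The log2 fold change in the libraries labelled Tob KO had the same sign as in WT for 19 of the 19 higher and 14 of the 14 lower genes. The median log2 fold changes were 0.43 and -0.63 against 0.52 and -0.71 in WT. These genes were selected in WT, so the larger size there is partly fixed by the selection. The share of all tested genes with the same sign in both genotypes was not counted. Egr4 was at 22, 23.7 and 21.9 CPM in naive and 45.2, 41.8 and 35.3 CPM in 1 h mice labelled Tob KO (0.86 ± 0.09, SE), and Meg3 at 2396, 1691 and 2311 CPM and at 1201, 1112 and 1473 CPM (-0.75 ± 0.15, SE). Map3k19 had the smallest unadjusted p for a difference among the 33 (-0.63 ± 0.24, SE; adjusted p = 0.988, edgeR), at 5.29–7.63 and 6.46–9.73 CPM in the labelled mice.

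Some early genes outside the 33 had a larger point estimate in the libraries labelled Tob KO. Fos was at 6.60, 4.08 and 8.89 CPM in their naive mice, below the 12.9–14.8 CPM of naive WT mice, and at 29.1, 30.6 and 27.3 CPM at 1 h, within the WT range of 25.5–36.7 CPM. The difference of the log2 responses was 0.95 ± 0.28 (SE, adjusted p = 0.988, edgeR). Dusp1 was at 12.6, 12.9 and 17.3 CPM and at 26.7, 28.5 and 27.0 CPM (difference 0.81 ± 0.20), Npas4 at 6.27, 4.90 and 7.09 CPM and at 11.7, 8.05 and 10 CPM (0.81 ± 0.25), and Arc at 80.3–91.3 and 192–243 CPM (0.53 ± 0.17, SE). None of these differences passed the threshold after adjustment (adjusted p = 0.988, edgeR).

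**Figure D5:**
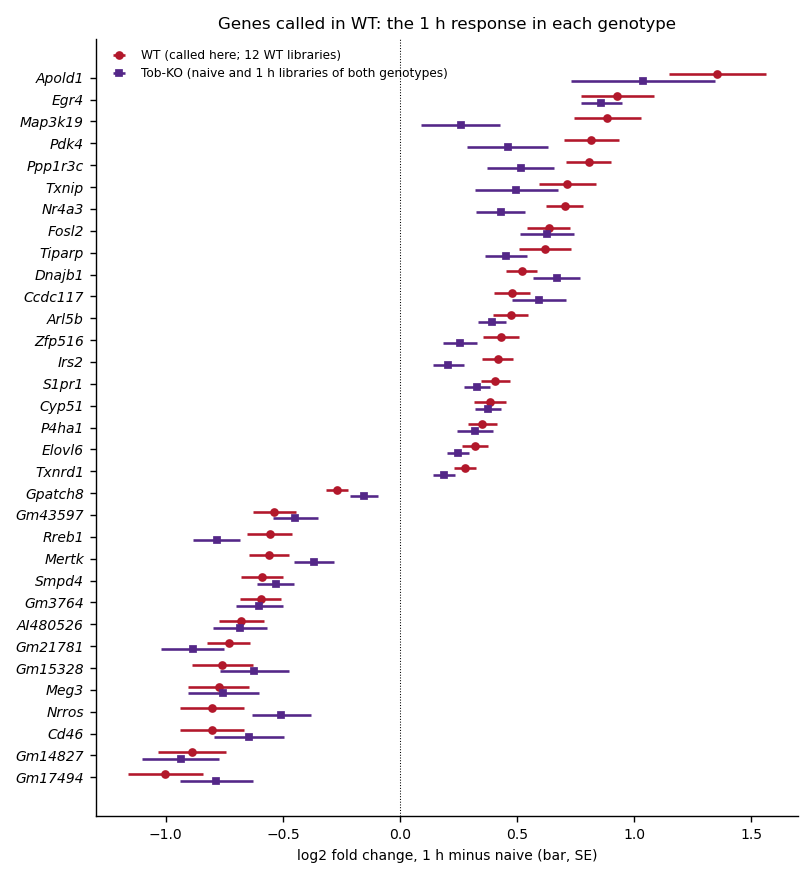
Log2 fold change of 1 h minus naive with its SE (x axis) for the 33 genes called in WT (y axis), in WT mice (red circles) and in mice labelled Tob KO (purple squares). All 33 genes lie on the same side of 0 in both genotypes, with medians of 0.52 and 0.43 for the 19 higher genes and -0.71 and -0.63 for the 14 lower genes. The genes were selected in WT, which favors larger values there.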

How the data were processed

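Poly(A) RNA of mouse hippocampus was sequenced as 150-bp paired-end reads from directional libraries. According to the submitters' processing notes and the study's methods, the authors aligned reads to GRCm38 with STAR 2.6.1d and counted them per gene with HTSeq 0.9.0, and the deposited table holds these raw counts per gene symbol for 24 libraries. The strand setting was not given in the sources used here. The 12 WT libraries held 28985355 to 39829648 counts.

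Genes with at least 0.2 CPM in 2 libraries were tested with edgeR 4.0.16 (R 4.3.3), with TMM scaling, a quasi-likelihood test with group means over the 12 WT libraries, two-sided, Benjamini-Hochberg adjustment over all genes tested, and a threshold of 0.05. The test of the difference between genotypes used the 12 naive and 1 h libraries of both. The study states no test between times, and DESeq2 1.42.0, edgeR's exact test and other settings were run as alternatives. Scripts were tested on simulated data. CPM in the text are TMM-scaled over 24 libraries. The SE after ± was derived from the test, as the absolute log2 fold change divided by the square root of its F statistic. Libraries of a group differed by more than counting noise (chi-square per degree of freedom 3.89 to 19.5 over 12 pairs), and are biological replicates per the labels. Intervals cover the spread between these mice only.

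Named genes were 26 early and stress genes, every called list member, and the 10 called genes outside the lists with the smallest p. Some genes were on several lists, such as Per1 on the cAMP/CREB, glucocorticoid and clock lists, so the counts of the lists are not independent. The members, lists and tests were chosen with earlier results of these data known. Of 18937 tested symbols, 18120 had 1 match in GENCODE M21, from which positions and gene kinds come.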

Additional observations from a re-analysis of the deposited data

How the results depend on the processing

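Every named gene kept its direction against naive mice under every alternative run, except Npas4, at 0.0539 without WT naive replicate 1 (lowest -0.2083, without naive replicate 3, against -0.12). Against naive mice, 33 genes were called, and the count was 144 without a low-count filter (61 higher, 83 lower), 213 with DESeq2 (90, 123), 183 with the exact test on the 6 libraries (81, 102), 56 with a choroid plexus score as covariate, 27 with the 6 libraries alone (18 of the 33 shared) and 36 with all 24 libraries (22 shared). Scaling by library size only called 32, 14 higher and 18 lower, against 19 and 14, and moved the median of all genes to -0.02. The exact test and DESeq2 each called all 33. Leaving out a library gave 0 (without naive replicate 3) to 82 (without 15 min replicate 1). It gave 6 without naive replicate 2, 5, 3 and 9 without 1 h replicates 1, 2 and 3, and 10 and 19 without 3 h replicates 1 and 2. The omissions of 15 min and 3 h libraries here were chosen after seeing the data. Against 15 min, 0 genes became 26 without a filter, 48 with DESeq2, 2 with 24 libraries, 1 with 6 libraries and 116 with the exact test, and leaving out a library gave 0 to 21 (without 15 min replicate 1). Against 3 h, 10 became 121, 195, 44, 102 and 351 in the same order, 19 with robust dispersions and 48 with the choroid plexus covariate, and leaving out a library gave 0 to 15. The count of 0 for the difference between genotypes was 0 under every alternative run. The causes were not tested. Same-numbered naive and 1 h mice correlated at 0.213, -0.0249 and -0.0473 in their deviations from the group means. For 15 min and 1 h mice the values were -0.0831, -0.0704 and -0.000757, and for 3 h and 1 h mice 0.157, -0.294 and -0.0371. So few values cannot decide whether the numbers mark a shared batch or pairing. With the replicate number as a block, 17, 0, 1 and 0 genes were called in the 4 comparisons, and 5 against naive in the 6 libraries.  With 3 mice a group, an exact permutation test of a single value cannot give a p below 0.1.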
